A study of Homo sapiens with 12 samples.

Results

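The comparison concerned here asked what SAHA added to sonidegib in the human line MDA-MB-468, an epithelial breast cancer line of the triple-negative type with extra copies of EGFR. It took the 3 libraries of cells pretreated with sonidegib (10 µM, 72 h) and then given SAHA (10 µM, 12 h), called the combination, and set them against the 3 libraries of cells given sonidegib alone (10 µM, 72 h). These are 6 of the 12 libraries of the study. The other 6 libraries came from control cells and from cells given SAHA alone (10 µM, 12 h). They are used here to show where the response to SAHA differed. They also enter the mean that filters genes and the estimate of the spread behind every SE and p-value. All 12 libraries hold bulk RNA of the same parental line and both groups of the comparison were given sonidegib. The labels do not state whether sonidegib stayed in the medium during the SAHA treatment or how long control cells were kept. Nor do they state whether cells given sonidegib alone were kept for the 12 h of the SAHA treatment. If they were not, SAHA and a longer time in culture cannot be told apart in this comparison. It is also not stated whether a group's 3 libraries stem from separate cultures. The p-values therefore measure the spread between libraries within the 4 groups, which may be technical. Of the 59324 genes in the table, 13937 had a mean of at least 1 TPM (a share of the transcript pool that is corrected for gene length and scaled to the same sum in every library) over the 12 libraries and were tested, 11995 of them protein-coding. Read depth is not kept in TPM and is therefore unknown.

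SAHA (vorinostat) blocks zinc-dependent histone deacetylases, enzymes that take acetyl groups off histones and other proteins. Their inhibition raises histone acetylation and moves the transcription of many genes in both directions, and in tumour cells it is known for inducing CDKN1A and stopping the cell cycle. Sonidegib binds Smoothened (SMO), which sits in the membrane and relays Hedgehog signals from the receptor PTCH1 to the GLI transcription factors. GLI1 and PTCH1 are themselves targets of that pathway. In bulk RNA, fewer cells of a kind and less RNA per cell cannot be told apart.

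The 6 libraries fell into their labelled groups. Across the tested genes the Pearson correlation was 0.967 to 0.975 within sonidegib, 0.972 to 0.978 within the combination and 0.947 to 0.956 between them (genes are not independent replicates). Sonidegib replicate 3 stood apart in non-coding RNA, with 12641 TPM of 5S ribosomal RNA against 1488 to 5135 TPM in the other 5 libraries and 4279 TPM of spliceosomal small nuclear RNA against 300.2 to 1103 TPM. In each of the 6 libraries without sonidegib the 5S genes were listed at 0. For any value set across these sets of libraries, preparation or processing and treatment cannot be told apart, whereas the combination and sonidegib lie within the same set. EPCAM, the epithelial adhesion molecule, lay at 178 to 211 TPM across the 6 libraries. SMAD4, a signalling gene that this line has lost, was at 0.03 TPM or less. RB1, the other gene listed beforehand as lost in this line, went the other way: its transcripts passed the filter of 1 TPM. RB1 was not called. The common leukocyte antigen PTPRC was at 0.01 TPM or less, and the leukocyte marker sum of 312 to 323 TPM with sonidegib and 217 to 232 TPM with the combination was almost all CD14. CD14, a lipopolysaccharide co-receptor, fell from 305 ± 5.08 to 215 ± 7.54 TPM.

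With the combination 5370 genes changed (38.5% of those tested, limma with Benjamini-Hochberg adjusted p under 0.05). Of these, 2442 rose (17.5%) and 2928 fell (21.0%), and the median change over all tested genes was -0.02 on the log2 scale. The change reached 2-fold on the log2(TPM + 1) scale for 503 genes (3.61%), of which 188 rose (1.35%) and 315 fell (2.26%). The 3 and 3 libraries did not overlap for 6916 genes (49.6%). Without sonidegib replicate 3 the counts were 2222 higher and 2463 lower, and 222 and 319 at 2-fold. A fit of only the 6 libraries compared gave 4924 changed genes. Protein-coding genes made up 96.4% of the genes that rose, 91.5% of those that fell and 86.1% of all tested genes, and long non-coding RNAs made up 1.97%, 6.08% and 7.43%. Genes that fell had a median GC content of 52.4% against 48.4% for those that rose and 48.6% for all. Calls became more frequent with level: among the 3485 genes with the lowest mean TPM 8.61% rose and 13.3% fell, with a median SE of 0.191, and among the 3484 with the highest 26.1% rose and 25.0% fell, with a median SE of 0.0741. Below, a change is a log2 difference of TPM + 1 (combination minus sonidegib) with its SE and limma's adjusted p, a level is mean TPM ± SD (n = 3), and the added 1 shrinks the change of a gene that lies near it.

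The cell cycle brake CDKN1A was among the largest rises. CDKN1A, which encodes the CDK inhibitor p21, stood at 11.57, 12.29 and 11.79 TPM with sonidegib and at 51.77, 59.98 and 63.19 TPM with the combination. The groups were far apart, and the change was 2.20 ± 0.105 (adjusted p = 1.37e-07), from 11.9 ± 0.369 to 58.3 ± 5.89 TPM. Its upstream sequence is shown because it is the best-known target of deacetylase inhibitors and because GC boxes, the binding site of SP1-type factors, are known there as the sites that answer these drugs. The 250 bases before the RefSeq start (chr6:36678464-36678713, plus strand, GRCh38.p14) hold 4 copies of the GC box GGGCGG, in capitals, the last 2 overlapping.
CDKN1A: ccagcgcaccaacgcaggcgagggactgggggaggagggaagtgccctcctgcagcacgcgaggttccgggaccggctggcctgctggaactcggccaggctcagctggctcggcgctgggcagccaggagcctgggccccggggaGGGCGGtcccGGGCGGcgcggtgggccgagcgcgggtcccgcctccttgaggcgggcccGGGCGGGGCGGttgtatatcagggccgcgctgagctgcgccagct
Of 35116 RefSeq upstream windows of the same length, 42.6% hold a GC box on either strand.

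CORO1A, an actin-binding coronin known from blood cells, rose more than CDKN1A. It stood at 6.8, 7.16 and 7.79 TPM with sonidegib and at 41.02, 51 and 56.57 TPM with the combination, a change of 2.60 ± 0.127 (adjusted p = 1.37e-07). ROPN1L, a protein of the sperm tail and cilia, went from 0.85, 0.85 and 0.79 TPM to 8.49, 12.06 and 12.19 TPM (2.69 ± 0.135, adjusted p = 1.62e-07), the largest rise by the naming rule. These genes and DACT3, an inhibitor of Wnt signalling that moved from 0.4, 0.33 and 0.46 TPM to 6.87, 7.6 and 7.46 TPM, were at low levels in every sonidegib library. In terms of mean TPM the rise was 13.1-fold for ROPN1L, 18.4-fold for DACT3, 9.67-fold for the growth factor BMP6 and 6.83-fold for CORO1A. The rest of the 15 largest rises included DPF1, a neuronal subunit of the BAF chromatin remodeller (0.967 to 7.19 TPM), the LIM-domain protein LMCD1 (4.36 to 21.9 TPM), the secreted glycoprotein STC1 (11.7 to 50.6 TPM) and the actin-bundling fascin FSCN1 (8.65 to 35.7 TPM). The kinesin KIF5C, the JNK scaffold MAPK8IP1, the postsynaptic protein NRGN, the beta-tubulin TUBB2A, the EGFR ligand AREG and the matricellular protein CCN2 completed it, with changes of 1.88 to 2.0. Among genes that rose at least 2-fold, 36 of 188 had a mean under 1 TPM with sonidegib, as did 508 of all 13937 tested genes. Among genes that fell at least 2-fold, 63 of 315 had a mean under 1 TPM with the combination, as did 642 of all. A gene under 1 TPM in 1 group passed the filter only through another group, so the filter bears on these counts.

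CSF1, the macrophage colony-stimulating factor, stood at 17.48, 15.27 and 17.69 TPM with sonidegib and at 2.66, 2.03 and 2.68 TPM with the combination. The fall was 2.37 on the log2 scale, with an SE of 0.117 (adjusted p = 1.47e-07), or 6.84-fold in mean TPM, and no library came near the other group. TRIB3, a pseudokinase induced by amino acid shortage, stood at 107.82, 117.35 and 113.23 TPM and fell to 24.6, 23.56 and 23.41 TPM (-2.19 ± 0.0514, adjusted p = 1.42e-09). RCAN1, an inhibitor of the phosphatase calcineurin, went from 328.35, 313.99 and 337.81 TPM to 65.01, 71.32 and 88.18 TPM (-2.12 ± 0.103). CASP14, a caspase of cornifying skin, went from 716.8, 705.74 and 677.54 TPM to 215.92, 190.03 and 207.29 TPM (-1.77 ± 0.085). The last 3 were the most abundant genes with sonidegib in the list of the 15 largest falls. The others included the phosphate carrier SLC34A2 (67.6 to 12.8 TPM), the laminin-like netrin NTN4 (32.7 to 6.32 TPM), the Wnt ligand WNT6 (62.7 to 14 TPM), the immune checkpoint ligand VTCN1 (69.9 to 18.7 TPM), the calcium-gated potassium channel KCNN4 (90.8 to 24.2 TPM) and the glycine transporter SLC6A9 (49.7 to 13.5 TPM). Transcription regulators in the list were JADE2 (12.7 to 2.4 TPM), TFAP4 (9.78 to 1.71 TPM) and CEBPD (29.7 to 7.49 TPM). CDHR2 and the read-through gene BORCS7-ASMT had the largest estimates but an uneven baseline. CDHR2 stood at 10.52, 9.53 and 3.86 TPM with sonidegib against 0.18, 0.13 and 0.12 TPM, and BORCS7-ASMT at 11.17, 4.9 and 1.76 TPM against 0, 0.1 and 0.22 TPM, with sonidegib replicate 3 the lowest of its group in both. The values of CDHR2 and SLC6A9 are also uncertain because each overlaps a tested gene on the opposite strand and the strandedness of the libraries is not stated. The same holds for MAPK8IP1 above and, in the paragraphs that follow, for CCND1, TYMS, GINS2, DNAJB1, SQSTM1, GABARAPL2, MAP1LC3B, ERBB2, TEAD2, TUBB2B, BCL2L11, CASP6, HDAC7, KAT5, KRT8, CDKN2A, CDKN2B, TUBA1B, TUBA1C, TUBB, IFIT3, PSMB8, RPL10, DDIT3, GAPDH and EGFR. Overlap was looked up only for genes that the naming rule took up, so other genes in the text may overlap too.

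**Figure D1:**
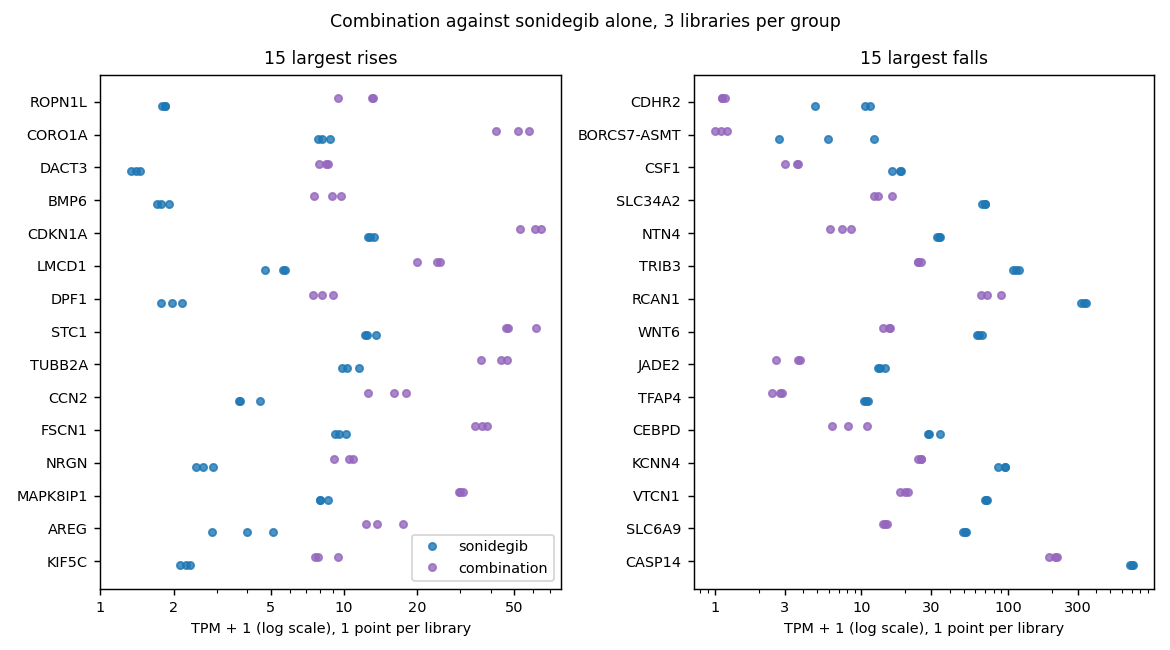
TPM + 1 on a log axis for the 15 largest rises (left) and 15 largest falls (right) in each of the 3 sonidegib and 3 combination libraries, 1 point per library. Genes were chosen among those without overlap between the groups, so the separation seen here is set by the choice. CDHR2 and BORCS7-ASMT show the widest spread with sonidegib.

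The gene lists below were read against all tested genes, of which 17.5% rose and 21.0% fell. Genes of growth arrest rose more often than that. Of 13 tested CDK inhibitors and growth arrest genes 6 rose (46.2%) and 2 fell, with a median change of 0.29 (1 fell without combination replicate 1 or 2 or sonidegib replicate 1 or 3). Besides CDKN1A, the CDK4 and CDK6 inhibitors CDKN2D and CDKN2B rose. CDKN2D stood at 52.86, 45.3 and 52.23 TPM with sonidegib and at 124.24, 137.64 and 150.47 TPM with the combination (1.44 ± 0.0842, adjusted p = 4.36e-07), and CDKN2B rose from 10.8 ± 0.916 to 22.7 ± 2.27 TPM. The DNA damage-inducible GADD45A rose by 0.97, and CDKN2A, the neighbour of CDKN2B, fell by 0.36.

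Cyclins moved in opposite directions. Of 18 tested cyclins, kinases and E2F factors 4 rose and 8 fell (median -0.27). CCND1, the cyclin that starts the G1 phase, stood at 50.45, 53.67 and 50.94 TPM with sonidegib and at 15.61, 15.47 and 19.51 TPM with the combination, a fall of 1.57 on the log2 scale (SE 0.0983, adjusted p = 7.44e-07). Its relative CCND3 went the other way, from 59.76, 59.6 and 58 TPM to 114.94, 120.57 and 121.8 TPM (1.0 ± 0.0523). CCNE1, the cyclin of S phase entry, stood at 7.79, 8.01 and 7.31 TPM with sonidegib and at 13.24, 15.35 and 14.16 TPM with the combination (0.81 ± 0.0843). CCNE1 was 22.6 TPM in control and 14.1 TPM with SAHA alone, where it fell, so the 2 SAHA comparisons moved it to nearly the same level from opposite sides (interaction 1.45 ± 0.12).

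Replication and mitosis genes fell in part. Of 33 S phase and replication genes 13 fell and 5 rose (median -0.12), and of 28 G2/M and mitosis genes 13 fell and 2 rose (median -0.24). The S phase count that rose was 2 without sonidegib replicate 1 or combination replicate 3 and 3 without sonidegib replicate 2 or combination replicate 2, and without combination replicate 3 the median was -0.25. TYMS, the thymidylate synthase, stood at 97.97, 96.25 and 99.98 TPM with sonidegib and at 69.03, 65.46 and 66.1 TPM with the combination (-0.55 ± 0.0921, adjusted p = 0.000756). UHRF1, which keeps up DNA methylation, fell from 5.78 ± 0.681 to 3.45 ± 0.393 TPM, and the replicative helicase subunit MCM7 from 125 ± 8.31 to 81.7 ± 2.06 TPM. The helicase partner GINS2 rose by 0.61. In mitosis the spindle protein PRC1 (-0.86 ± 0.129), the kinases PLK1 (-0.80 ± 0.0674) and AURKA (-0.80) and the factor FOXM1 (-0.79 ± 0.0823) fell the most. The proliferation marker MKI67 stood at 18.56, 16.93 and 16.44 TPM against 16.81, 12.77 and 16.11 TPM, with overlap between the groups (adjusted p = 0.257). With SAHA alone 30 of the 33 S phase genes and 26 of the 28 mitosis genes had fallen, with medians of -0.92 for both lists. The interaction, which tests the difference between the 2 SAHA responses, was positive for 28 of 33 and 21 of 28 and negative for 0 in both lists (limma, also 0 at an unadjusted p under 0.05), where 11.8% of all tested genes were positive and 19.7% negative.

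MYC, the growth-promoting transcription factor, stood at 73.86, 69.83 and 77.31 TPM with sonidegib and at 33.77, 35.18 and 37.9 TPM with the combination (-1.03 ± 0.0913, adjusted p = 8.5e-06). MXD1, which competes with MYC for its partner MAX, rose from 4.24, 4.18 and 4.92 TPM to 8.3, 9.51 and 10.76 TPM (0.95 ± 0.131). The groups did not overlap for either gene. Of 29 genes of the MYC network and of ribosome biogenesis 10 fell and 6 rose (median -0.20), with DKC1, the pseudouridine synthase of the nucleolus, at -0.82 ± 0.0679. Of the 32 cytosolic ribosomal protein genes RPL10 alone was called (lower, a call lost without replicate 1 or 2 of sonidegib or replicate 2 or 3 of the combination), and the median was -0.07. Without sonidegib replicate 3, 7 of the 32 were called lower.

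Stress pathways went in opposite directions. Chaperones of the endoplasmic reticulum (ER) rose while genes of the amino acid response fell. Of 22 ER chaperones and sensors 10 rose (45.5%) and 1 fell, with a median of 0.26. HERPUD1, a membrane protein of ER-associated degradation, stood at 198.71, 224.21 and 214.22 TPM with sonidegib and at 715.37, 726.16 and 683.18 TPM with the combination (1.73 ± 0.079, adjusted p = 1.22e-07). HSPA5, the main ER chaperone BiP, stood at 169.7, 193.19 and 196.72 TPM against 465.29, 483.58 and 503.64 TPM (1.37 ± 0.0822, adjusted p = 5.33e-07). Both were higher in every combination library than in any sonidegib library. DNAJC3, DNAJB11, MANF, HSP90B1, CALR and HYOU1 rose by 0.30 to 0.67, as did the stress sensor EIF2AK3 (0.55). The transcription factor XBP1, itself part of the ER stress response, was the 1 member that fell (227.98, 234.79 and 227.88 TPM to 141.15, 134.61 and 151.4 TPM, -0.69 ± 0.0592).

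HERPUD1 responded differently with and without sonidegib. It was 71 TPM in control and 84.1 TPM with SAHA alone, and the interaction was 1.49 ± 0.11 (adjusted p = 4.4e-06). HSPA5 moved by 1.32 with SAHA alone and had no called interaction (0.05, adjusted p = 0.77). The upstream sequences of these genes are shown because each carries a textbook ER stress element, whose letters are in capitals. The second ER stress element in HERPUD1 has ATTGG and CCACG 1 base apart (chr16:56931892-56932141, plus strand). The ER stress element in HSPA5 has CCAAT and CCACG 9 bases apart (chr9:125241344-125241593, minus strand, both GRCh38.p14).
HERPUD1: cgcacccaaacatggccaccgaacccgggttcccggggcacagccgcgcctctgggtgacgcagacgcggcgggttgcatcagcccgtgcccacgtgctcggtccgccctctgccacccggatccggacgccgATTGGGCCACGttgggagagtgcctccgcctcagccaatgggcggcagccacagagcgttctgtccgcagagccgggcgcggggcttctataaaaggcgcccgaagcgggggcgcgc
HSPA5: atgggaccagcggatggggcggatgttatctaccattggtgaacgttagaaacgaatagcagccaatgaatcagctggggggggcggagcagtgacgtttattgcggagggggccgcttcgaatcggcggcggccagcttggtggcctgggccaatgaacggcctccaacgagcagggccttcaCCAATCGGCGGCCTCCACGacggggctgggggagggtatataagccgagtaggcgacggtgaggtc
The first occurs on either strand in 18 of 35116 RefSeq windows of 250 bases (0.0513%) and the second in 26 (0.074%). A match is a description of the sequence and not of binding.

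In the amino acid and integrated stress response 16 of 25 tested genes fell (64%) and 3 rose, with a median of -0.37. After TRIB3 the largest falls were NUPR1, a stress-induced nuclear protein that stood at 133.87, 112.74 and 126.87 TPM with sonidegib and at 48.19, 69.03 and 61.53 TPM with the combination (-1.06 ± 0.126, adjusted p = 6.88e-05), and the mTOR inhibitor DDIT4 (-0.86). The serine synthesis enzyme PSAT1 fell from 158 ± 6.45 to 102 ± 5.14 TPM, and the amino acid carriers SLC7A1, SLC3A2, SLC7A5 and SLC1A5 fell by 0.46 to 0.69. The asparagine synthetase ASNS (-0.25) and ATF4 itself (-0.17) fell by little, and both lost their call in at least 1 alternative. CHAC1, a glutathione-degrading enzyme that ATF4 and CHOP induce, went against the list. It stood at 16.69, 14.32 and 14.79 TPM with sonidegib and at 26.18, 24.78 and 26.74 TPM with the combination (0.73 ± 0.113, adjusted p = 0.000443), whereas with SAHA alone it had fallen from 9.02 to 5.7 TPM (interaction 1.31 ± 0.16). DDIT3, which encodes CHOP, rose by 0.59, a call lost without sonidegib replicate 2 or combination replicate 2. The CHAC1 upstream sequence (chr15:40953221-40953470, plus strand, GRCh38.p14) holds 1 match to TGATGNAA, the core shared by ATF4 and CHOP sites, on the opposite strand, in capitals.
CHAC1: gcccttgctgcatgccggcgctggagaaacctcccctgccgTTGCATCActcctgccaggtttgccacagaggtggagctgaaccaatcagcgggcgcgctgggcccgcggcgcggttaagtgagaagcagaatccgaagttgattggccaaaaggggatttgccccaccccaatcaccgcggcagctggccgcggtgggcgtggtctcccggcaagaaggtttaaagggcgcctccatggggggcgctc
HERPUD1 holds a match to the same core, printed in lower case above, as do 3.14% of the 35116 windows.

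Cytosolic heat shock genes rose in part, 6 of 15 (40%) against 2 that fell. DNAJB1, an HSP70 co-chaperone, stood at 205.23, 207.47 and 207.81 TPM with sonidegib and at 427.54, 429.78 and 469.97 TPM with the combination (1.09 ± 0.0509). HSPA1A, the inducible HSP70, stood at 170.85, 176.73 and 170.33 TPM against 242.16, 239.81 and 238.41 TPM (0.47 ± 0.0531), a small step beside the move from 151 to 762 TPM with SAHA alone (interaction -1.85 ± 0.075). Reads of HSPA1A can be shared with its near-identical copy HSPA1B, at 0.25, whose call was lost without sonidegib replicate 1 or 3 or combination replicate 2. Metallothioneins, which bind zinc and copper, rose in 3 of 4 tested genes, with MT1X at 936.01, 876.14 and 853.44 TPM with sonidegib and 2372.91, 2355.23 and 2431.45 TPM with the combination (1.43 ± 0.0563, adjusted p = 5.65e-08). The metallothionein count that rose was 2 without sonidegib replicate 1 or 2 or combination replicate 2 or 3, and 2 without the filter. Members of that family are close copies of each other. NRF2 targets split, with 4 of 19 higher and 6 lower. The 4 aldo-keto reductases on the list fell (AKR1B10 -0.94, AKR1C3 -0.49, AKR1C2 -0.41, AKR1C1 -0.40), whereas with SAHA alone all 4 rose. AKR1C3 had reached 249 ± 3.37 TPM with sonidegib, against 35.1 TPM in control, before it fell to 177 ± 3.7 TPM. AKR1C1, AKR1C2 and AKR1C3 share much of their sequence.

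Most cholesterol genes rose. Of 27 tested genes of cholesterol synthesis and uptake 19 rose (70.4%) and 2 fell, with a median of 0.48. INSIG1, the ER anchor that holds back the sterol-regulated factor SREBP, stood at 12.48, 15.78 and 15.03 TPM with sonidegib and at 40.19, 39.41 and 41.9 TPM with the combination (1.43 ± 0.109, adjusted p = 3.01e-06). The synthesis enzymes MSMO1 (1.20), IDI1 (1.06 ± 0.127), SQLE (1.03 ± 0.102) and HMGCS1 (0.92 ± 0.17) rose with it. The regulator SREBF2 fell (-0.18). The rise was larger than with SAHA alone for INSIG1 and IDI1 (interactions 0.62 and 0.57). Over the list the interaction was positive for 2 genes and negative for 13 of 27. Of 13 fatty acid synthesis genes 6 rose and 3 fell. These counts were 4 and 4 without combination replicate 3, and 4 and 2 without sonidegib replicate 1.

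Lysosomal genes also rose, 14 of 26 (53.8%) against 3 that fell (median 0.24), or 1 that fell without sonidegib replicate 3. NEU1, the lysosomal sialidase, stood at 42.36, 39.6 and 42.54 TPM with sonidegib and at 86.02, 97.28 and 97.95 TPM with the combination (1.15 ± 0.0567, adjusted p = 1.37e-07). Of the 9 membrane and pump proteins on the list 7 rose, led by the proton pump subunit ATP6V0D1 (38.24, 45.68 and 43.9 TPM to 89.77, 86.38 and 87.86 TPM). The lysosomal master regulator TFEB fell by 0.37. In the autophagy machinery 5 of 21 genes rose and 2 fell (4 without combination replicate 3). The autophagosome proteins GABARAPL2 (104 ± 5.9 to 200 ± 21.9 TPM) and MAP1LC3B (67.5 ± 4.29 to 120 ± 11.2 TPM) rose, and the cargo receptor SQSTM1 fell from 396 ± 23.5 to 235 ± 11.2 TPM. The mitochondrially encoded mRNAs rose in 9 of 13 and fell in 0 (limma, also 0 at an unadjusted p under 0.05), with a median of 0.30, but this count is weak: it was 3 of 13 without sonidegib replicate 1, without sonidegib replicate 3 or without combination replicate 1, and 5 of 13 under median-of-ratios or 75th percentile scaling. Mitochondrial ribosomal RNA moved with it, at 2.06% to 2.48% of all TPM with sonidegib and 2.41% to 2.86% with the combination. Its part in the count was not tested.

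**Figure D2:**
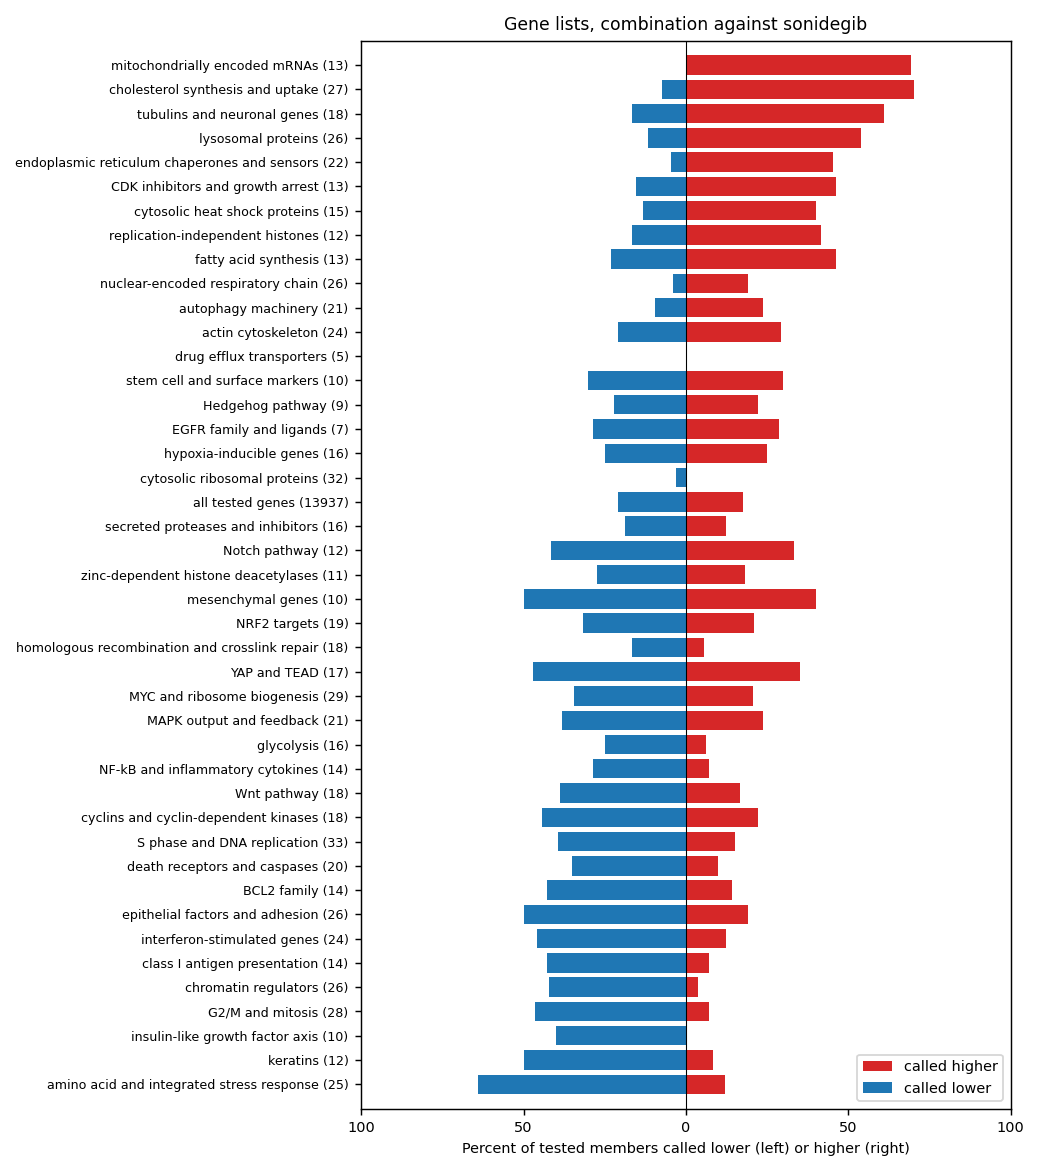
Percent of the tested members of each gene list that were called higher (right, red) or lower (left, blue) with the combination against sonidegib, with the number of tested members in brackets. Lists are ordered by the percent higher minus the percent lower. Cholesterol (70.4% higher) lies near the upper end and the amino acid response (64% lower) at the lower end, against 17.5% and 21.0% over all tested genes.

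In the EGFR family 2 of 4 tested ligands rose and 2 of 3 tested receptors fell, and the other 3 genes were not called. The EGFR ligand AREG stood at 2.99, 1.86 and 4.1 TPM with sonidegib and at 12.61, 11.28 and 16.54 TPM with the combination (1.88 ± 0.223, adjusted p = 6.64e-05), and HBEGF at 2.87, 3.23 and 3.07 TPM against 9.19, 8.71 and 9.51 TPM (1.32 ± 0.125). Both ligands were higher in every combination library. The receptors ERBB2 and ERBB3 fell. ERBB2 stood at 22.51, 26.33 and 24.41 TPM with sonidegib and at 5.65, 7.39 and 6.39 TPM with the combination (-1.77 ± 0.134, adjusted p = 2.85e-06), and ERBB3 fell from 18.2 ± 2 to 9.1 ± 1.08 TPM. EGFR itself stood at 618.68, 677.85 and 676.67 TPM against 565.65, 537.26 and 627.43 TPM, with overlap (-0.19 ± 0.0842, adjusted p = 0.0969). The immediate early factors JUN (19.3 ± 1 to 50.1 ± 2.6 TPM), EGR1 (2.64 ± 0.227 to 7.24 ± 0.351 TPM) and FOS (3.69 ± 0.499 to 8.77 ± 0.658 TPM) rose, while FOSL1, a FOS relative that lasting ERK activity maintains, fell by 0.78. Of 21 MAPK output and feedback genes 5 rose and 8 fell, and the count that fell was 4 or 5 without any 1 library other than combination replicate 3, so the list has no stable direction.

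In the Hippo pathway some TEAD targets rose and most of the listed factors fell. YAP and TAZ are coactivators that reach DNA through TEAD factors. Of 17 tested genes 6 rose and 8 fell (median -0.04). Among the 10 targets 5 rose and 3 fell, and among the 7 factors, which are not TEAD genes alone, 1 rose and 5 fell. The targets CCN2 (2.7, 2.76 and 3.51 TPM to 15.1, 11.61 and 16.95 TPM, 1.95 ± 0.122), CCN1 (18.54, 16.96 and 23.49 TPM to 53.25, 57.02 and 65.64 TPM, 1.54 ± 0.112) and F3 (3.11 ± 0.62 to 7.67 ± 0.673 TPM) rose. TEAD2 (32.58, 29.13 and 32.47 TPM to 10.64, 11.56 and 11.38 TPM, -1.41 ± 0.0715) and TEAD4 (-0.98 ± 0.0804) fell, as did YAP1 (-0.48), whereas TEAD1 rose (0.45). The targets that fell were AJUBA (-0.87), TGFB2 (-0.61) and AMOTL2 (-0.25), the last with a call lost in several alternatives. The CCN2 upstream sequence (chr6:131951373-131951622, minus strand, GRCh38.p14) is shown because it is the usual reporter of TEAD activity. It holds 3 copies of the TEAD core GGAATG, in capitals.
CCN2: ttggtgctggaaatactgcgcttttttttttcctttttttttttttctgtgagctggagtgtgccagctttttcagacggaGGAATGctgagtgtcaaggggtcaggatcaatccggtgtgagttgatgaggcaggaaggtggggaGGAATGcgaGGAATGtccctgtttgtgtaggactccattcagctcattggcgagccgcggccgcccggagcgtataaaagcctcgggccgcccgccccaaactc
At least 1 copy occurs on either strand in 11.9% of the 35116 windows.

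Hedgehog transcripts were near the limit of the table. Of 18 genes 9 passed the filter, none of the 3 ligands among them, with 2 that rose and 2 that fell. Leaving out any 1 of the 6 libraries left 1 that rose, since the pathway inhibitor SUFU (0.27) then lost its call. The co-receptors went in opposite directions: CDON stood at 4.44, 4.16 and 4.67 TPM with sonidegib and at 7.81, 7.37 and 8.49 TPM with the combination (0.71 ± 0.127, adjusted p = 0.0011), and BOC at 4.57, 4.18 and 4.29 TPM against 1.56, 2.05 and 1.31 TPM (-1.03 ± 0.156, adjusted p = 0.000383). GPR161, a brake of the pathway in cilia, fell by 0.53. The receptor PTCH1 stood at 3.48, 4.51 and 4.91 TPM against 4.89, 6.78 and 5.26 TPM, with overlap (0.33 ± 0.138, adjusted p = 0.0861). GLI1 and SMO lay below the filter. In a fit without it GLI1 stood at 1.01, 0.39 and 0.47 TPM with sonidegib and at 1.25, 1.36 and 1.58 TPM with the combination (0.58 ± 0.193, adjusted p = 0.0711). SMO, the target of sonidegib, stood at 0.5, 0.46 and 0.82 TPM against 0.18, 0.05 and 0.09 TPM (-0.52 ± 0.0988, adjusted p = 0.00468). In the Notch pathway 4 of 12 genes rose and 5 fell. The target HEY1 rose from 0.66, 0.63 and 0.9 TPM to 3.51, 2.63 and 2.94 TPM and the receptor NOTCH3 fell from 165 ± 0.541 to 81 ± 4.55 TPM. In the Wnt pathway 3 of 18 listed genes rose and 7 fell, the co-receptor LRP5 among the latter (56.5 ± 2.34 to 21.6 ± 0.778 TPM). WNT6, above, is not on that list. In the insulin-like growth factor axis 4 of 10 genes fell and 0 rose (limma, also 0 at an unadjusted p under 0.05), among them the binding protein IGFBP3 (233 ± 35 to 115 ± 9.99 TPM).

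Of the 11 genes of the deacetylases themselves 2 rose (18.2%) and 3 fell (27.3%), shares near those of all tested genes. HDAC3 stood at 50.78, 44.48 and 49 TPM with sonidegib and at 78.43, 88.26 and 91.76 TPM with the combination (0.83 ± 0.0692, adjusted p = 5.49e-06), and HDAC7 at 23.92, 24.35 and 24.77 TPM against 8.04, 7.84 and 7.78 TPM (-1.51 ± 0.0687, adjusted p = 1.22e-07). HDAC1 (0.21), HDAC2 (-0.39) and HDAC9 (-0.46) were called too, but each lost its call without sonidegib replicate 1, where HDAC6 was called lower instead. The count of deacetylase genes that rose was also 1 without sonidegib replicate 2, without combination replicate 2 or 3, and without the variance trend. The other 6 of the 11 were not called. HDAC5 and HDAC11 were among these (adjusted p = 0.176 and 0.113), although both had risen with SAHA alone (1.39 and 1.28), and their interactions were -1.28 and -1.48. Of 26 chromatin regulators 11 fell and 1 rose (a call lost without sonidegib replicate 1 or combination replicate 3), and the median was -0.27, with the DNA methyltransferase DNMT3A at 9.98, 11.2 and 12.26 TPM against 4.39, 4.31 and 3.32 TPM (-1.28 ± 0.111) and the acetyltransferase KAT5 at -0.81 ± 0.123.

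Of 18 tubulin and neuronal genes 11 rose (61.1%) and 3 fell, with a median of 0.59. TUBB2A stood at 8.86, 9.27 and 10.54 TPM with sonidegib and at 35.37, 43.18 and 45.67 TPM with the combination (2.0 ± 0.0969), TUBB2B rose by 1.55 ± 0.123 and the neuronal beta-tubulin TUBB3 from 32.5 ± 2.15 to 82.3 ± 3.03 TPM. The tubulins of dividing cells, TUBA1B (-0.33), TUBA1C (-0.41) and TUBB (-0.34), fell. Tubulin genes share sequence, so counts may be split between copies. Epithelial factors and adhesion genes fell in 13 of 26 (50%) and rose in 5. The luminal factor FOXA1 stood at 9.81, 11.06 and 10.94 TPM with sonidegib and at 2.41, 2.25 and 2.62 TPM with the combination (-1.76 ± 0.116, adjusted p = 1.1e-06). The prostate and breast factor SPDEF fell from 45.73, 45.95 and 45.86 TPM to 16.52, 14.23 and 15.35 TPM (-1.52 ± 0.0714), and the desmosomal cadherin DSC2 fell by 1.48. CDH1, which encodes E-cadherin, rose from 23.9 ± 1.29 to 33.5 ± 2.07 TPM. Mesenchymal genes showed no common direction, with 4 of 10 higher and 5 lower, and 2 higher without replicate 1 or 2 of sonidegib or replicate 2 or 3 of the combination. The membrane protease MMP14 (-1.18) and the factor TWIST2 (-1.14) fell. Keratins fell in 6 of 12 and rose in 1, KRT8 (865 ± 34 to 1310 ± 13 TPM).

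Interferon-stimulated genes fell in 11 of 24 (45.8%) and rose in 3 (1 without combination replicate 2 or 3), with a median of -0.20. The antiviral GTPase MX1 stood at 25.84, 25.19 and 28.45 TPM with sonidegib and at 12.43, 12.84 and 19.29 TPM with the combination (-0.82 ± 0.128, adjusted p = 0.000461). OAS2 (-0.93), ISG20 (-0.83) and IFIT3 (-0.83) fell as well. With SAHA alone 18 of the 24 had risen and 2 had fallen, and the interaction was negative for 19 and positive for 0 (limma, also 0 at an unadjusted p under 0.05). The immunoproteasome subunits PSMB8, PSMB9 and PSMB10 fell by 0.55 to 0.74. Of 14 tested genes of class I antigen presentation 6 fell, 1 rose and 7 were not called, with a median of -0.04. Leukocyte markers other than CD14 and CD68 did not pass the filter.

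Genes of cell death changed on both sides. Of 14 BCL2 family genes 2 rose and 6 fell. BCL2L11, the death promoter BIM, stood at 12, 13.04 and 12.09 TPM with sonidegib and at 23.7, 28.24 and 24.97 TPM with the combination (0.99 ± 0.0826, adjusted p = 5.35e-06), and the effector BAK1 rose by 0.51. BBC3 (PUMA) fell by 0.72 and BOK by 0.80. Of 20 death receptor and caspase genes 2 rose and 7 fell. Those that fell included the executioner caspase CASP6 (-1.04), the caspase inhibitor CFLAR (-0.88 ± 0.172) and the ligand TNFSF10 (138.37, 144.63 and 152.01 TPM to 64.07, 81.04 and 95.8 TPM). The count that fell was 4 without combination replicate 1. Of the 5 drug efflux transporters tested 0 were called by limma (3 at an unadjusted p under 0.05). ACTB and GAPDH, genes of the cytoskeleton and of glycolysis that every cell uses, were not called (0.05 and -0.13).

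SAHA against control is the comparison most like this one, and it shares no library with it. With SAHA alone 8176 genes changed (58.7%), 4430 of them higher and 3746 lower. Of the 5370 genes called after sonidegib, 3850 (71.7%) were called in the same direction with SAHA alone, which is 47.1% of the genes called there. Another 1165 (21.7%) were called only after sonidegib, and 355 (6.61%) were called in opposite directions. The interaction was called for 4381 genes (31.4%), 1642 positive and 2739 negative. Under median-of-ratios scaling the split was 2392 to 2396, so the excess of negative calls depends on the scaling. Of 1922 genes higher in both comparisons the interaction was negative for 749 (39%), that is a smaller rise after sonidegib, and positive for 20 (1.04%). Of 1928 genes lower in both it was positive for 553 (28.7%), a smaller fall, and negative for 100 (5.19%). Under median-of-ratios scaling these counts were 726 and 53 of 2048, and 698 and 72 of 2085. The interaction sets libraries with 5S RNA against libraries without it, so treatment and preparation or processing cannot be told apart in it.

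**Figure D3:**
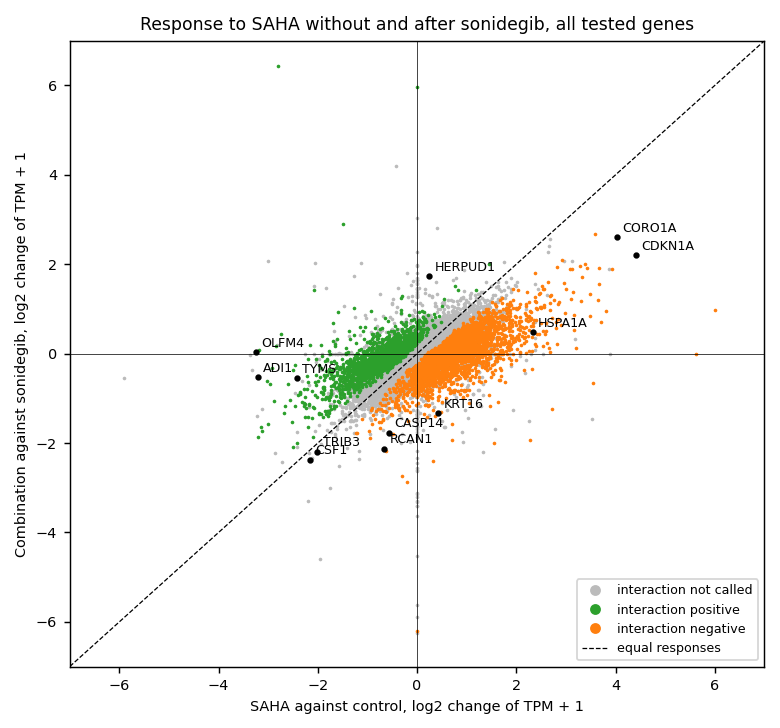
Log2 change with SAHA alone against control (horizontal) and with the combination against sonidegib (vertical) for all 13937 tested genes, coloured by the interaction call. CDKN1A and HSPA1A lie below the line of equal responses, OLFM4 and HERPUD1 above it.

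Some genes rose more after sonidegib. Rises with a positive interaction numbered 257 (10.5% of the genes that rose), 146 without combination replicate 3 and 166 without sonidegib replicate 2. The largest among protein-coding genes with at least 5 TPM in a group and no overlap, a choice made after values were seen, were STC1, HERPUD1, the scaffold MPP1, INSIG1, MT1X, ID2, IDI1 and MXD1. They are ranked by the change after sonidegib and not by the interaction, which ranged from 0.24 (MT1X) to 1.58 (ID2). The interactions of MPP1, MT1X, STC1 and IDI1 were near the threshold (limma adjusted p = 0.044, 0.038, 0.034 and 0.032). ID2, an inhibitor of basic helix-loop-helix factors, stood at 3.35, 2.52 and 2.53 TPM with sonidegib and at 6.1, 7.9 and 10.41 TPM with the combination (1.25 ± 0.204), against 8.74 TPM in control and 6.78 TPM with SAHA alone. Falls with a negative interaction numbered 704 (24% of the genes that fell). Under median-of-ratios scaling the 2 counts were 493 and 589, so the gap between them depends on the scaling. RCAN1 and CASP14 belong here and show a common layout of the group levels. RCAN1 was 90.5 TPM in control, 56.9 TPM with SAHA, 327 TPM with sonidegib and 74.8 TPM with the combination, and CASP14 259, 174, 700 and 204 TPM in the same order, so the high level was seen with sonidegib alone and not in the other 3 groups. ERBB2 (10.4, 3.94, 24.4 and 6.48 TPM) and CEBPD (16.7, 8.32, 29.7 and 7.49 TPM) were likewise highest with sonidegib alone. These comparisons share the sonidegib libraries, so a high sonidegib value enters both the fall and the interaction.

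Opposite responses were found for 355 genes, 82 higher after sonidegib and lower with SAHA alone and 273 the reverse. CCNE1 and CHAC1, described above, are among the first. Among the second, chosen by size after values were seen, KRT16, a keratin of stressed epidermis, stood at 126.05, 127.87 and 118.97 TPM with sonidegib and at 52.34, 48.07 and 45.49 TPM with the combination, against 60.6 TPM in control and 81.6 TPM with SAHA alone (interaction -1.76 ± 0.1). The sterol hydroxylase CYP27A1 (35.6, 50.2, 115 and 45.9 TPM in control, SAHA, sonidegib and combination), the LIM protein FHL2 (63.4, 95.8, 155 and 77.3 TPM), PHLDA3 (25.9, 32.4, 35.9 and 14.5 TPM) and AKR1B10 (12, 16.7, 20.4 and 10.2 TPM) did the same. At the other end some genes that SAHA alone changed strongly were not called after sonidegib. OLFM4, a secreted glycoprotein of mucosal epithelium, stood at 75.57, 81.47 and 89.13 TPM with sonidegib and at 88.75, 72.78 and 90.67 TPM with the combination (0.03 ± 0.0998, adjusted p = 0.839), while it went from 160 to 15.9 TPM with SAHA alone. The protease MMP7 showed 213 ± 8.45 and 223 ± 11.8 TPM here against 174 and 17.9 TPM there. A p above the threshold does not show that OLFM4 and MMP7 stayed the same, but their SEs were small beside the 3.25 and 3.18 log2 units by which they fell with SAHA alone.

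**Figure D4:**
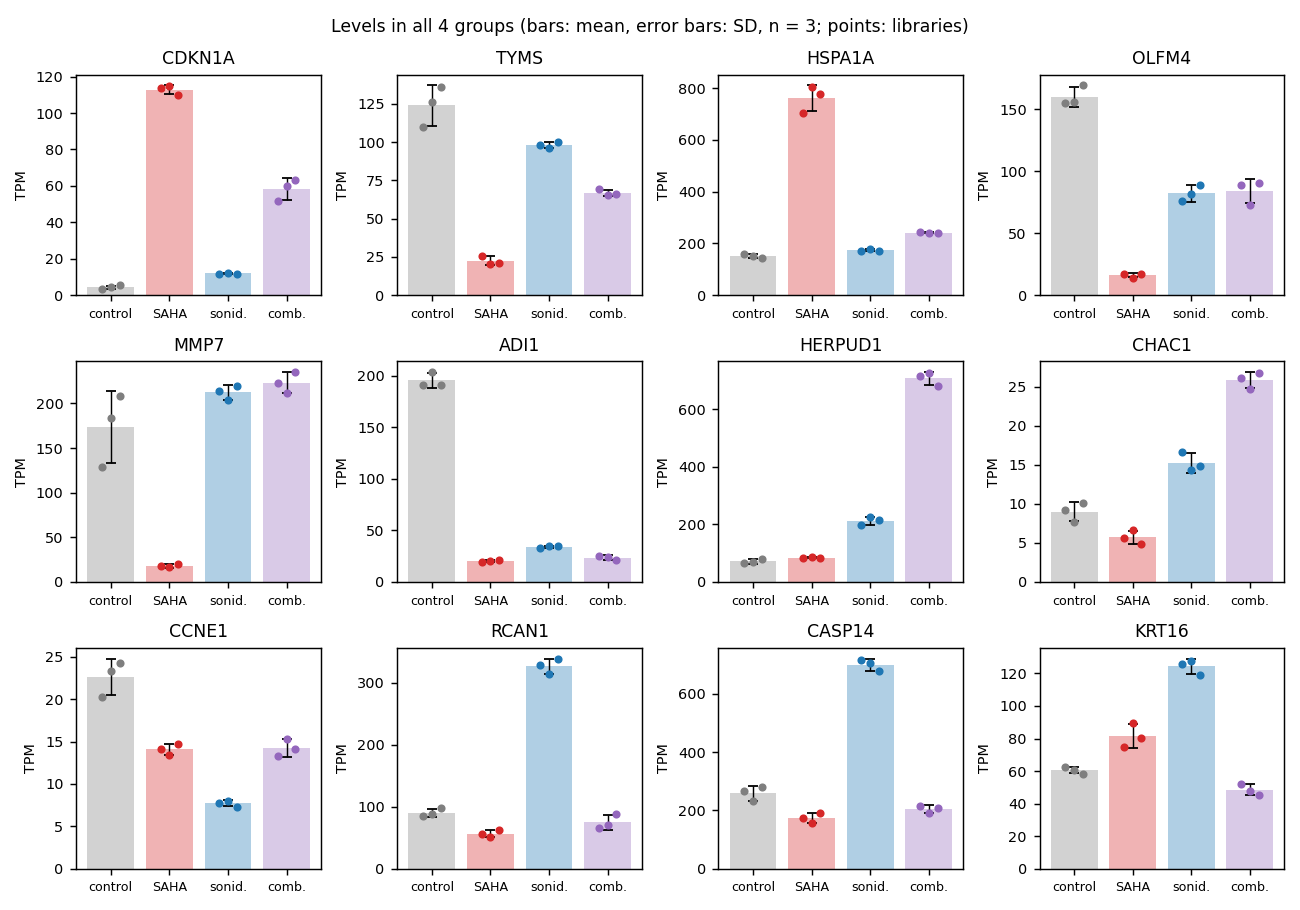
TPM of 12 genes in all 4 groups (bars are means, error bars SD, points the 3 libraries). RCAN1, CASP14 and KRT16 are high with sonidegib alone, HERPUD1 and CHAC1 are highest with the combination, and OLFM4 and MMP7 are lowest with SAHA alone.

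**Figure D5:**
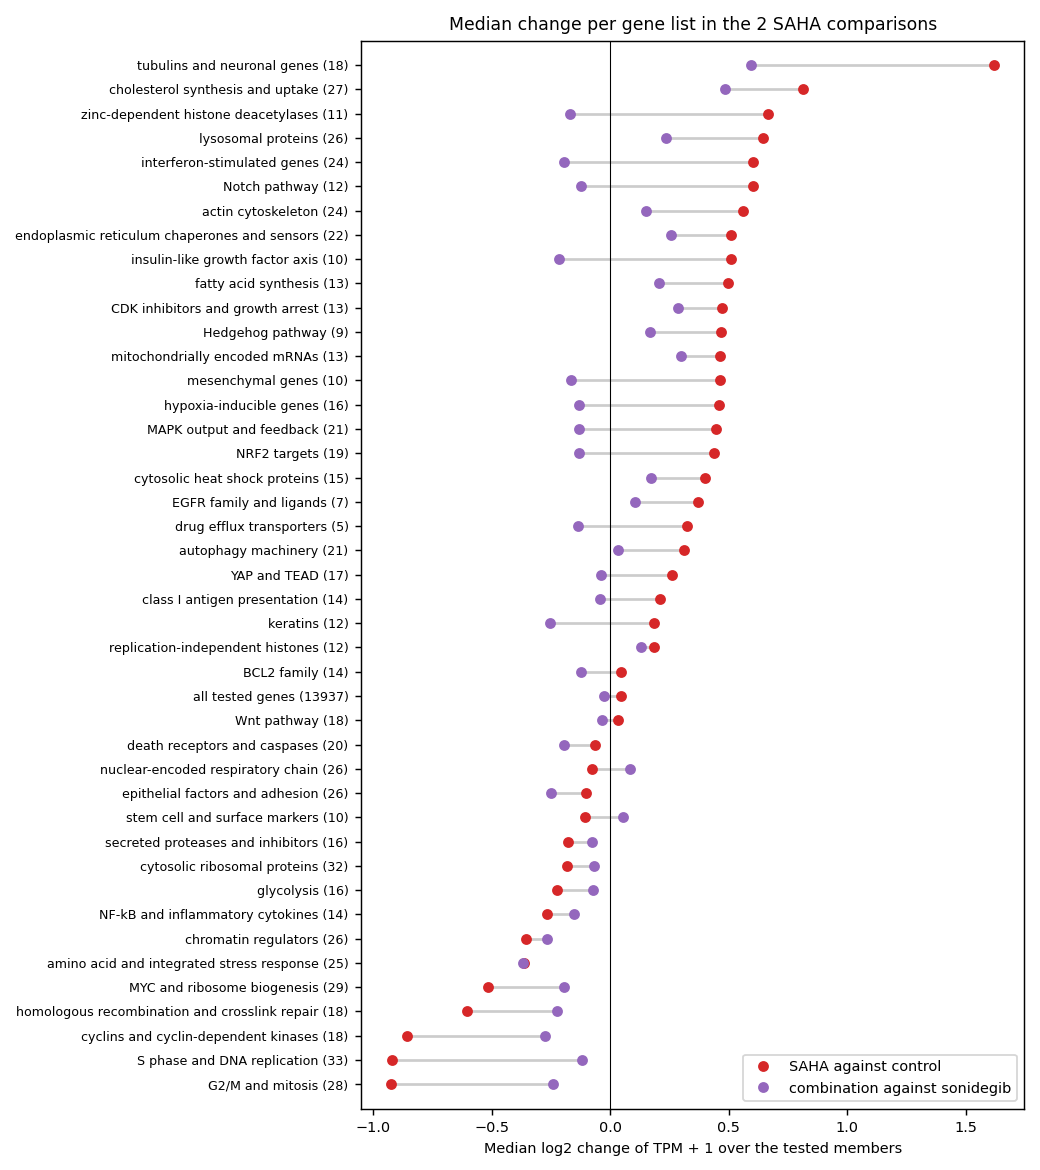
Median log2 change over the tested members of each list with SAHA against control (red) and the combination against sonidegib (purple). S phase genes lie at -0.92 and -0.12, interferon-stimulated genes at 0.60 and -0.20, and cholesterol genes at 0.81 and 0.48.

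For some lists the medians of the 2 comparisons had opposite signs. Interferon-stimulated genes had a median of 0.60 with SAHA alone and -0.20 here, deacetylase genes 0.66 and -0.17, insulin-like growth factor genes 0.51 and -0.22 and NRF2 targets 0.44 and -0.13. For the amino acid response the medians were alike (-0.37 and -0.37), with 6 positive and 4 negative interactions among 25 genes. Cell cycle lists were far lower with SAHA alone, and the cholesterol, lysosome and tubulin lists were positive in both.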

How the data were processed

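RNA sequencing libraries of MDA-MB-468 were grouped by their labels (3 control, 3 SAHA, 3 sonidegib, 3 combination). The deposited table holds TPM per gene and library, scaled by the authors to the same sum in every library and rounded to 2 decimals. Bowtie2 2.4.1 and the build GRCh38 are named in the submitters' processing notes, while the quantifier, any filter and the strandedness are not given in the sources used here. TPM keep no depth, so no counting interval was computed and the precision rests on 3 libraries per group.

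Values were analysed as log2(TPM + 1) in limma 3.58.1 (R 4.3.3) for 13937 genes whose mean over the 12 libraries reached 1 TPM. The model had 4 group means, 8 residual degrees of freedom and variances moderated with an intensity trend. Tests were two-sided and adjusted by Benjamini-Hochberg over all tested genes of a comparison, with calls at an adjusted p under 0.05. The interaction is combination minus sonidegib minus SAHA plus control. The procedure was tested on simulated data.

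Named genes were the 15 largest rises and 15 largest falls among called protein-coding genes that averaged 5 TPM or more in either group and did not overlap, up to 3 rises and 3 falls per gene list, the 8 largest interactions in each direction and a set of fixed genes. Some others are named from the lists, and a few genes that the rule names are not reported here. The 47 lists held 876 genes, of which 757 were tested. The comparison, the lists and the rule were chosen with earlier results of these data known, and the promoter sequences and motifs after values had been seen. Lists are described by counts and medians without a test of the list. Alternatives covered the pseudocount, the filter, scaling, the libraries in the fit, the variance trend, a replicate block and leaving out each library. Gene type and overlap came from GENCODE release 29. Upstream sequences are from RefSeq (GRCh38.p14), which matched 9775 of 13937 tested genes (70.1%). A planned comparison of motif shares between called genes and all tested genes was void, since under 80% had a sequence.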

Additional observations from a re-analysis of the deposited data

Results flagged for a closer look

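For 16 genes, the 8 largest positive and the 8 largest negative interactions among protein-coding genes with at least 5 TPM in a group, the test of the difference between the SAHA response after sonidegib and the SAHA response without it was called (limma, Benjamini-Hochberg). All interaction values are on the log2(TPM + 1) scale, and since libraries with and without sonidegib differ in the listing of 5S RNA, treatment and preparation or processing cannot be told apart in them.

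Negative interactions, a lower response after sonidegib, were found for ACTBL2 (-2.99), the guanosine monophosphate reductase GMPR (-2.85), BORCS7-ASMT (-2.72), FAM220A (-2.71), CDHR2 (-2.67), the NKG2D ligand RAET1G (-2.64), the Nogo receptor relative RTN4RL2 (-2.64) and KCTD17 (-2.64). GMPR rose from 6.03 ± 0.427 to 12.7 ± 1.12 TPM after sonidegib and from 1.15 ± 0.243 to 29.1 ± 1.89 TPM with SAHA alone. KCTD17 rose from 9.63 ± 0.821 to 18.1 ± 1.21 TPM after sonidegib, against 2.38 ± 0.295 to 36.7 ± 1.23 TPM. FAM220A had a wide spread in every group, with 10.1 ± 5.49 TPM for sonidegib and 4.46 ± 3.86 TPM for the combination. Reads of ACTBL2 can be shared with other actins.

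Positive interactions were found for OLFM4 (3.29), MMP7 (3.25), the neuropeptide GAL (3.17), C1orf53 (3.0), the methionine salvage enzyme ADI1 (2.68), GLYATL2 (2.61), TMEM203 (2.53) and FAM111B (2.36). ADI1 stood at 33.08, 34.59 and 34.93 TPM with sonidegib and at 25.48, 23.78 and 21.29 TPM with the combination, whereas SAHA alone moved it from 195 to 20.2 TPM. GAL was at 2.46 ± 0.293 TPM with sonidegib and 3.69 ± 0.816 TPM with the combination, against 26.3 ± 1.08 TPM in control and 3.16 ± 1.07 TPM with SAHA. FAM111B was at 6.65 ± 0.98 TPM with sonidegib and 7.86 ± 1.73 TPM with the combination, against 48.4 ± 5.44 TPM in control and 10.1 ± 1.81 TPM with SAHA. For ADI1, GAL, GLYATL2 and FAM111B the sonidegib level was already far under control. Of 248 genes named for other reasons 136 also had a called interaction.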

How the results depend on the processing

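Of 242 called genes among 262 named ones, 214 were called in every one of the 17 alternatives, and no value of the 242 changed sign. Sign changes of the named genes that were not called were not counted. Over all tested genes, the counts of called and of 2-fold genes for the combination against sonidegib moved by over 1.5 times only with a pseudocount of 0.1, which gave 898 genes at 2-fold or more (331 higher, 567 lower) against 503; the lower pseudocount widens changes of genes at a few TPM by construction. Leaving out 1 library at a time gave 4466 to 4939 changed genes (1812 to 2501 higher, 2438 to 2931 lower), 498 to 541 at 2-fold (150 to 233 higher, 303 to 348 lower) and 3776 to 4297 interactions (1336 to 1686 positive, 2331 to 2909 negative). Rises were fewest without combination replicate 3. For the MAPK output list the number of higher minus lower genes (-3) turned to 1 without a filter and ranged from -4 to 2 when 1 library was left out (1 without sonidegib replicate 3, 2 without combination replicate 1). The cause was not tested. With a replicate block 2689 genes rose and 3128 fell. Same-numbered libraries did not in general deviate together (correlations -0.0586 to 0.111 over 18 pairs, 1 above 0.1), so the numbers were not taken as pairs. The 1 pair above 0.1 was sonidegib replicate 1 with combination replicate 1. Replicates 2 and 3 of these groups were at -0.0062 and -0.0026. Not every library correlated best with its own number. Depth is unknown, and a weak change of a gene near 1 TPM may be missed.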

Other observations

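Other gene groups are given here against the 17.5% of all tested genes that rose and the 21.0% that fell. Among 12 replication-independent histone genes 5 rose (41.7%) and 2 fell, with H1-10 at 0.85 and H3-3B at 0.79, while H2AX fell by 0.45 and H2AZ1 by 0.31. Among 24 actin cytoskeleton genes 7 rose (29.2%) and 5 fell (20.8%). Beside CORO1A and FSCN1 the actinin ACTN4 (0.52) and the myosin MYH9 (0.47) rose, and the tropomyosins TPM1 (-0.63) and TPM4 (-0.47) fell. Glycolysis genes fell in 4 of 16 (25%) and rose in 1 (2 without combination replicate 1), with the glucose carrier SLC2A1 at -0.65. Hypoxia-inducible genes were split evenly, with 4 of 16 higher and 4 lower (25% each), CA9 at -0.62 and VEGFA at -0.41. The homologous recombination list had a share of calls below that of all genes, with RAD51D (-0.92), FANCD2 (-0.52) and RAD54L (-0.45) lower and FANCM (0.91) higher of 18 tested. Of 10 tested stem cell and surface markers 3 rose and 3 fell (30% each), with a median of 0.05. CD44 stood at 1386.94, 1360.29 and 1403.52 TPM with sonidegib and at 976.72, 910.06 and 905.41 TPM with the combination (-0.57 ± 0.0404). PROM1 fell from 39.1 ± 2.91 to 21 ± 3.22 TPM and ALDH1A3 by 0.76, while the integrin ITGA6 rose by 0.73.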
